A study of Mus musculus with 2 samples.

Results

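The collagen genes described here are the 44 protein-coding mouse genes whose symbol is Col, a number, a and a number, out of 21938 protein-coding genes of GENCODE release M21 on chromosomes with peaks. They were taken by name alone and fall into 11 fibrillar genes (Col1, Col2, Col3, Col5, Col11, Col24 and Col27), 6 basement membrane genes (the Col4 family) and 27 others. They were examined with DNase-seq, in which DNase I cuts nuclear DNA where it is open and the cut ends are sequenced. The tissue was whole lung of male mice of the F1 hybrid strain B6CASTF1/J at 14 days of age, with no treatment named. The 2 libraries form 1 group. Replicate 2 is a pool of 3 males, while the label of replicate 1 says male and names no pool. As the donor record is the same for both, they may or may not share animals, and the spread between them may be technical. There is no contrast between conditions, so no test was made and the values of both libraries are given side by side.

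Collagens are the main structural proteins of the extracellular matrix, built from chains that wind into a helix. Fibrillar collagens form the rope-like fibres that give lung tissue its tensile strength, while type IV collagens form the sheet-like network of basement membranes, which in the alveolus lies between epithelium and capillary. The other types decorate fibrils, form beaded filaments or anchoring structures, or span the cell membrane. In the lung, fibroblasts and smooth muscle are known as main sources of fibrillar chains, and endothelium and epithelium as contributors to basement membranes.

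Each library has a list of peaks, the sites called accessible by the authors, and a list of footprints, short stretches inside accessible DNA that were protected from cutting. The smaller of the 2 peak lists of each library was used, with 94786 peaks in replicate 1 and 77403 in replicate 2, beside 326313 and 252174 footprints. The score of a peak is the authors', in a scale the files do not state. It is given as a percentile, the rank of the peak among all peaks of its library, with 100 at the top. The lists differ in length, so a percentile that differs between libraries shows no change. A promoter-window peak has a base within 1 kb of the 5′ end of any transcript of the gene, and a gene with one is called open. The 44 genes have 200 annotated transcript 5′ ends. The read depth is unknown, and in whole lung fewer cells of a type and less open chromatin per cell cannot be told apart.

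The stretches below come from chosen peaks in the promoter windows of collagen genes. Those of Col6a2 and Col16a1, the highest by mean rank, are not among them. All stretches were read from the GRCm38 reference, which has the coordinates of mm10, and the other parental allele of the hybrid was not read. Capitals mark bases inside footprints of both libraries, and exons were left out. The peak at the Col1a1 start and the higher peak in the intron behind it show how differently both sites of this gene are built. Col5a1 and Col27a1 follow as the next fibrillar genes by rank, Col4a5 as a head-to-head basement membrane gene, and Col18a1 for a start far inside the gene.
Col1a1 start, chr11:94936101-94936223, + strand: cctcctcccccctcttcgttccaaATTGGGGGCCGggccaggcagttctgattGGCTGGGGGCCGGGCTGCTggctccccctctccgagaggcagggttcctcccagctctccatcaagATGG
Col1a1 intron, chr11:94937121-94937280, + strand: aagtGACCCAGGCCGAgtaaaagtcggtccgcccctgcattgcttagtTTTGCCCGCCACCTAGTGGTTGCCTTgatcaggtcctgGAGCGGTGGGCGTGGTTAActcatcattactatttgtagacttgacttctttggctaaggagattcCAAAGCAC
Col5a1 start, chr2:27886281-27886380, + strand: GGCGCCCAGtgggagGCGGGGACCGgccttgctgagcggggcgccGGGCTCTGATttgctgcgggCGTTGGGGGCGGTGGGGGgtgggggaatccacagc
Col27a1 inner start, chr4:63215241-63215317, + strand: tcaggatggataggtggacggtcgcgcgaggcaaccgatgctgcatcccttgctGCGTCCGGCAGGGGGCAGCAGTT
Col4a5 start, chrX:141475281-141475369, + strand: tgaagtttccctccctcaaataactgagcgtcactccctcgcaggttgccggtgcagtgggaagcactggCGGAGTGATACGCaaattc
Col18a1 inner start, chr10:77114067-77114140, - strand: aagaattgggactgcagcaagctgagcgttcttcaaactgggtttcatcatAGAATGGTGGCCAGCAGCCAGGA

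The next stretches are distal peaks, which lie more than 1 kb from every transcript 5′ end of protein-coding and long noncoding genes and within a collagen gene or 20 kb on either side. The first 5 had the highest mean percentile of all collagen distal regions found in both libraries. The Col1a2 region was chosen after its values were seen, as mouse Col1a2 is known to have a far-upstream enhancer active in fibroblasts. Capitals again mark footprints of both libraries.
Col23a1 intron, chr11:51539721-51539940, + strand: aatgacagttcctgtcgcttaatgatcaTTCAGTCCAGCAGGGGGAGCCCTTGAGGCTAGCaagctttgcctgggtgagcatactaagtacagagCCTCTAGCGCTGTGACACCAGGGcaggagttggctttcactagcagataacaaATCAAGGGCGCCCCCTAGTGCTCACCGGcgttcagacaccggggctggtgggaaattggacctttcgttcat
Col5a3 upstream, chr9:20831061-20831240, + strand: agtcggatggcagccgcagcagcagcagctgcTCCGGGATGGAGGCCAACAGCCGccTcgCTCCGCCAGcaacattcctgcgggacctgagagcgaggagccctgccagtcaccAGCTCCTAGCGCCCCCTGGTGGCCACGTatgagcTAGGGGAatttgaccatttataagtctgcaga
Col18a1 intron, chr10:77130641-77130880, + strand: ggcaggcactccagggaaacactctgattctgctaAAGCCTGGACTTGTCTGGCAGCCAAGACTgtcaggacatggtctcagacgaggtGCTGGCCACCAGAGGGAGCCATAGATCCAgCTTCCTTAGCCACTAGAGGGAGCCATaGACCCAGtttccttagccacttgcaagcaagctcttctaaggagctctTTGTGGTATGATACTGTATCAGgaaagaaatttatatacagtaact
Col13a1 upstream, chr10:61980541-61980720, + strand: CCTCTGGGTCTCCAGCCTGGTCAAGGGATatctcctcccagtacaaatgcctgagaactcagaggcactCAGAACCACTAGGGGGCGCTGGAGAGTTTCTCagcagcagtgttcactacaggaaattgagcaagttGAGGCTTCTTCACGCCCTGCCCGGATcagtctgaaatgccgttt
Col16a1 intron, chr4:130087441-130087640, + strand: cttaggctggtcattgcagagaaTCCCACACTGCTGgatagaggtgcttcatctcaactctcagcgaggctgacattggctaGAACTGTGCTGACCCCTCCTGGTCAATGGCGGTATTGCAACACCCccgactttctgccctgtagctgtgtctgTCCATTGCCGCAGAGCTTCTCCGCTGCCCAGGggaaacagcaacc
Col1a2 upstream, chr6:4489421-4489620, + strand: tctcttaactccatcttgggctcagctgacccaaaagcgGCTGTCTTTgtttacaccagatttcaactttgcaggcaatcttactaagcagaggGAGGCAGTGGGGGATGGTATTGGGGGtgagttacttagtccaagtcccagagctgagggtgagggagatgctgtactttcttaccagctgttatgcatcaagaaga

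Most collagen genes were open, but at peaks of middling rank. A promoter-window peak was found for 32 collagen genes in replicate 1 and 28 in replicate 2, and the 28 were open in both. Over all protein-coding genes 66.6% were open in replicate 1, 64.1% in replicate 2 and 63.6% in both. The share among collagen genes, also 63.6% in both libraries, was thus that of the background. Collagen genes had a median of 4 transcript starts, against 3 over all genes, so more windows counted for them. The part of this in the share was not tested. The peaks themselves ranked lower. The median percentile of the highest promoter-window peak was 65.1 in replicate 1 and 59.4 in replicate 2, against 89.9 and 89.7 over all open genes. Peaks at or above the 90th percentile in both libraries were found for 2 collagen genes, Col6a2 and Col16a1, while 30% of all protein-coding genes had one in both, 33.1% in replicate 1 and 31.5% in replicate 2. The percentile was at least 80 in both libraries for 43.9% of all genes and for 9 collagen genes: Col1a1, Col4a1, Col4a2, Col5a1, Col6a2, Col12a1, Col16a1, Col18a1 and Col23a1.

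**Figure D1:**
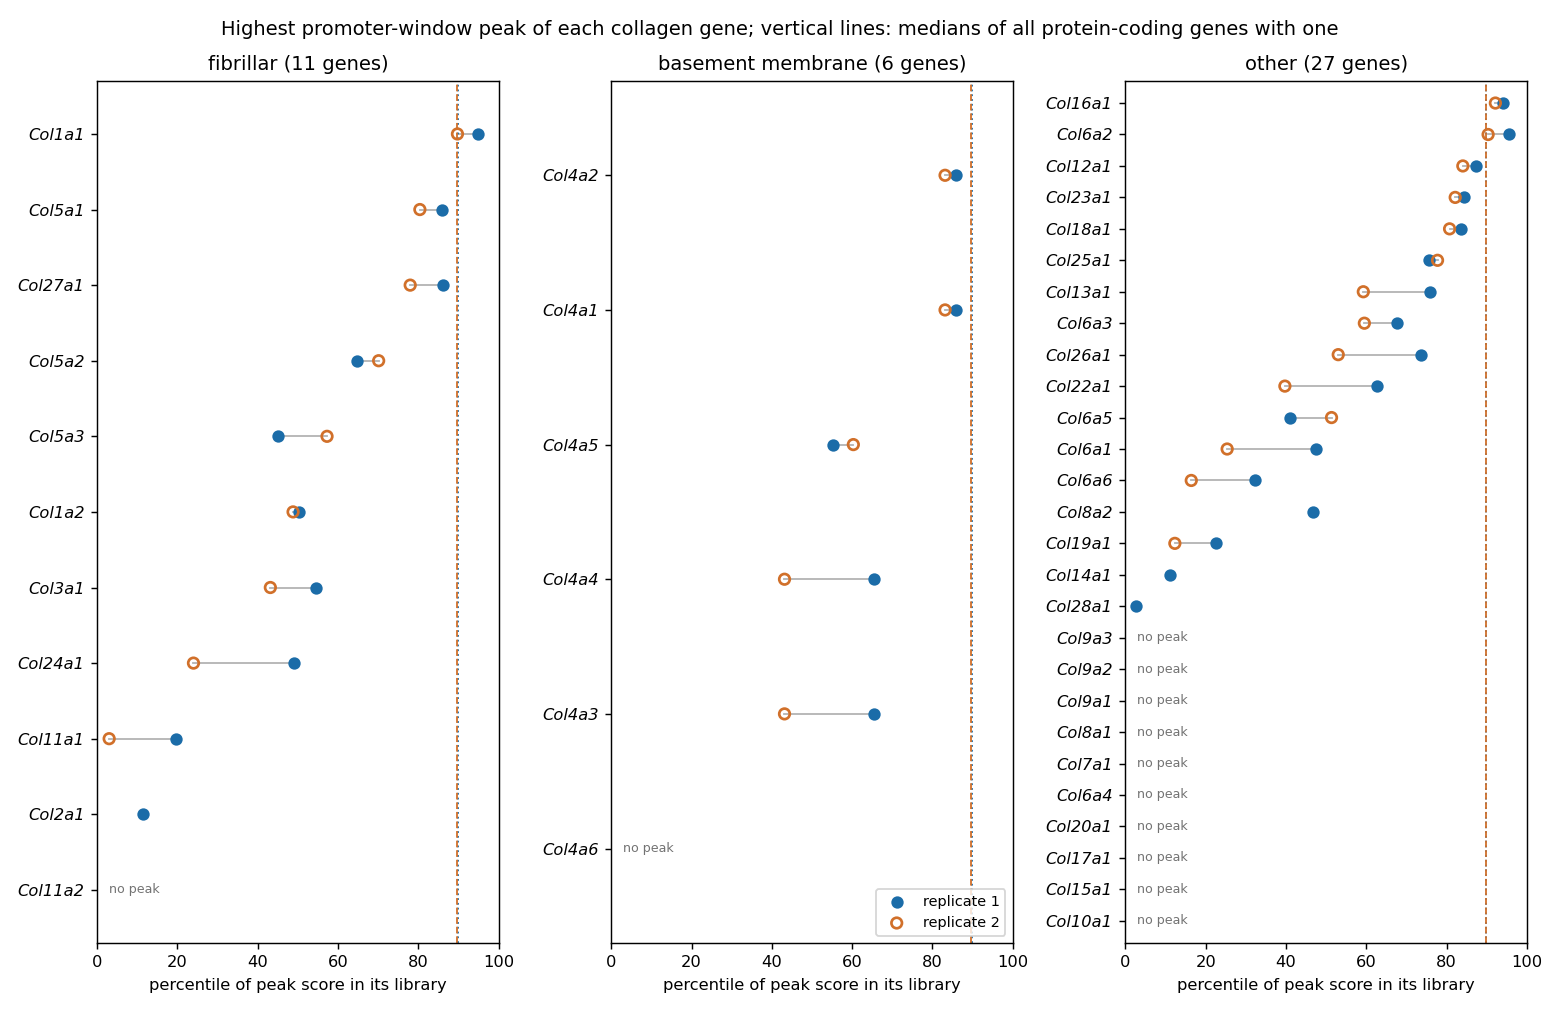
Percentile of the highest promoter-window peak of each collagen gene (x axis, 0 to 100) in replicate 1 (filled circles) and replicate 2 (open circles), by type, with the medians of all open protein-coding genes as vertical lines. Only Col1a1, Col6a2 and Col16a1 reach those lines in both libraries, and 12 genes have no peak.

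Among fibrillar genes 9 of 11 were open in both libraries, with medians of 52.4 and 57.3 over those open in each library. Col1a1 and Col1a2 encode the chains of type I collagen, the main fibre of most connective tissue, and their promoters ranked far apart. Col1a1 had its highest peak at 95.0 in replicate 1 and 89.8 in replicate 2. That peak, at chr11:94937121-94937280, lies in an intron, centred 976 bp inside the gene, and entered the window through both the outermost start and the start of a processed transcript. The peak at the start itself, chr11:94936101-94936320, stood at 77.6 and 77.2. A further Col1a1 peak, centred 3256 bp inside the gene near a retained-intron transcript, stood at 86.1 and 71.9. Col1a2 reached 50.3 and 48.8, with its peak centred 37 bp inside a protein-coding transcript, and the start of Gm43921 lies in reach of the same peak. Both libraries thus placed the start of Col1a1 over that of Col1a2, with no overlap of the 4 values.

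Col3a1, the chain of type III collagen found in elastic and vascular tissue, stood at 54.4 and 43.2, its peak centred 112 bp inside the gene. The type V chains, which start and thin type I fibrils, were open at all 3 genes. Col5a1 stood at 85.9 and 80.4, centred 65 bp before the start, with the start of the long noncoding gene 2810430I11Rik within 1 kb. Col5a2 stood at 64.7 and 70.1 and Col5a3 at 45.1 and 57.3. The 3 genes kept this order in both libraries, Col5a1 over Col5a2 over Col5a3. Col27a1, a fibrillar chain known from cartilage, stood at 86.1 and 78.0 at a peak 1316 bp inside the gene, near the start of a retained-intron transcript, and its outermost start had none in either library.

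The other fibrillar genes were weak or closed. Col24a1 stood at 49.1 and 24, at an intron peak 988 bp inside the gene. Col11a1, a chain of cartilage fibrils, stood at 19.5 and 2.99. Col2a1, the main collagen of cartilage, had a peak in replicate 1 only, at 11.5 and without a footprint, and Col11a2 had none. Col11a1, Col2a1 and Col11a2 were thus the lowest fibrillar genes, whereas Col27a1, also known from cartilage, stood at 86.1 and 78.0. Of 11 cartilage markers 7 were open in both libraries, or 63.6%, the share of all genes, among them Sox9 at 56.4 and 46.5, while Acan, Matn1, Ucma and Snorc were closed; any part of cartilage in these values was not tested.

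**Figure D2:**
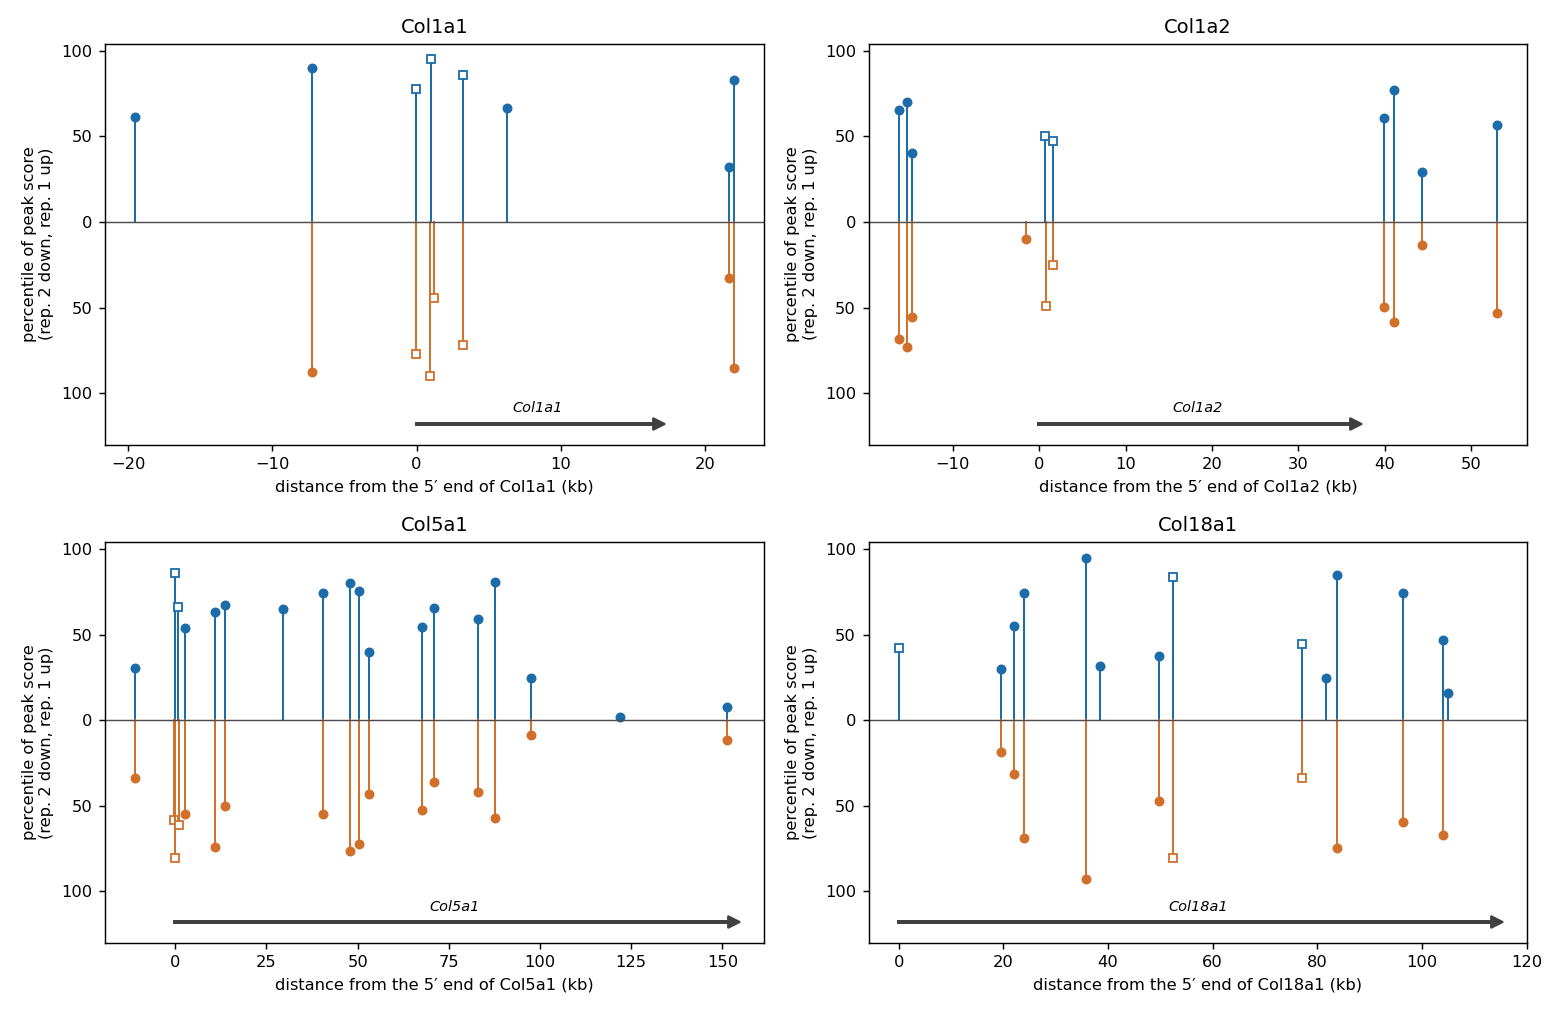
Peaks at Col1a1, Col1a2, Col5a1 and Col18a1: distance from the outermost 5′ end in kb (x axis) against percentile, replicate 1 upward and replicate 2 downward. Squares are promoter-window peaks, filled circles distal regions and arrows the gene models; the Col18a1 peak at 83.6 and 80.8 lies 52488 bp inside the gene.

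The Col4 genes lie in head-to-head pairs, each pair reading outward from neighbouring starts. The Col4a1 and Col4a2 pair ranked over the other Col4 genes in both libraries. Col4a1 and Col4a2 encode the chains of the basement membrane network found in nearly all tissues. Their outer starts are 21 bp apart, so 1 peak, chr8:11312701-11312920, served both genes, at 85.8 in replicate 1 and 83.2 in replicate 2. Col4a3 and Col4a4 encode chains of specialised basement membranes such as those of the kidney glomerulus and the alveolus. Their starts are 72 bp apart and they too shared a single peak, chr1:82586741-82587140 in replicate 1, at 65.5 and 43.2. Col4a5, the partner chain of both, stood at 55.2 and 60.3, centred 15 bp before its start, while Col4a6 was the only basement membrane gene closed in both libraries. The starts of Col4a5 and Col4a6 are 1309 bp apart, so a peak within 1 kb of either need not serve both. Both lie on the X chromosome, of which male cells carry 1 copy, and the part of copy number in their ranks was not tested.

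Footprints in the shared Col4a1 and Col4a2 peak numbered 4 in replicate 1 and 3 in replicate 2, and 2 of them overlapped between libraries. Both lie within the Col4a1 model, 52 and 21 bp before the Col4a2 start, and are shown as the protected bases of a start region that serves both genes.
Col4a2 footprint A, chr8:11312753-11312760, + strand: CGCGCCGC
Col4a2 footprint B, chr8:11312784-11312793, + strand: GCGCTGCCCC
Replicate 2 listed the same sites with slightly shorter ends, CGCGCCG at chr8:11312753-11312759 and CGCTGCCC at chr8:11312785-11312792. The Col4a3 and Col4a4 peak held 5 footprints in each library. Col4a2 had another promoter-window peak in both libraries, 93125 bp inside the gene near a retained-intron transcript, at 79.4 and 83.1. Col4a6 had no listed peak, yet runs of bases with a raised cutting rate reached a false discovery rate of 3.44e-07 in replicate 1 and 0.00588 in replicate 2 within 1 kb of a start.

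**Figure D3:**
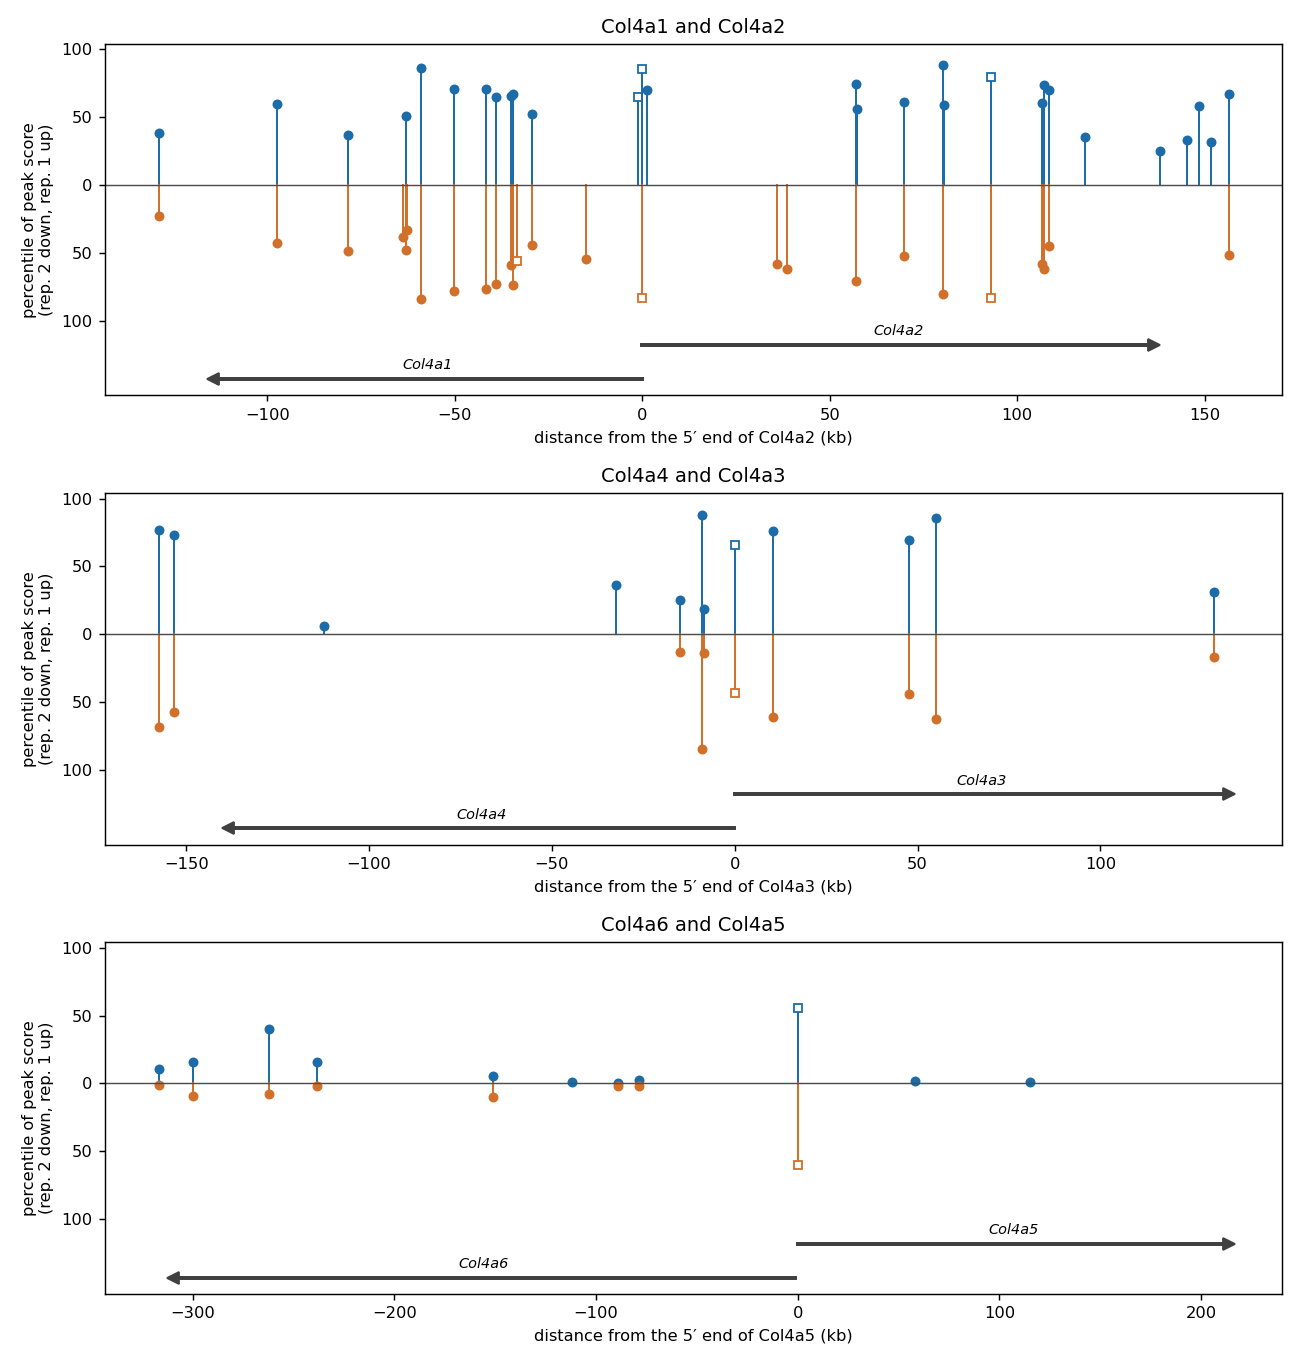
Peaks at the 3 head-to-head Col4 pairs: distance in kb from the 5′ end of the gene that reads to the right (x axis) against percentile, replicate 1 upward and replicate 2 downward. Squares are promoter-window peaks and filled circles distal regions; the shared start of Col4a1 and Col4a2 is at 85.8 and 83.2, that of Col4a3 and Col4a4 at 65.5 and 43.2, and Col4a6 has none.

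The remaining 27 genes split by family, with 14 open in both libraries. Of the 6 beaded-filament genes, whose type VI microfibrils link cells to the matrix, 5 were open. Col6a2 held the top value of the family with 95.5 and 90.4, against 67.8 and 59.5 for Col6a3 and 47.6 and 25.3 for Col6a1, its partner chains. Col6a5 stood at 41.0 and 51.3 and Col6a6 at 32.3 and 16.4, and Col6a4 was closed. Col6a1 and Col6a2 lie on the same strand with starts 102538 bp apart, so these are separate peaks, and in both libraries Col6a2 stood over Col6a3 and Col6a3 over Col6a1.

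Of 9 FACIT genes, which encode collagens that sit on fibril surfaces, 4 were open in both libraries. Col16a1 had the highest mean rank of all 44 genes, 94.2 and 92.2, centred 10 bp before its start, with Gm12963 starting within 1 kb. Col12a1, found on fibrils of tissues under load, stood at 87.3 and 84.1, Col22a1 at 62.7 and 39.7 and Col19a1 at 22.5 and 12.3. The highest Col19a1 peak lies 135092 bp inside the gene beside a processed transcript, and a peak in replicate 1 only, at 21.02, lies 881 bp inside a protein-coding transcript. The cartilage chains Col9a1, Col9a2 and Col9a3 and also Col20a1 were closed, and Col14a1 had a peak in replicate 1 only, at 11.04.

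Of the 4 collagens that span the membrane, 3 were open. Col23a1 stood at 84.3 and 82.2, Col25a1 at 75.6 and 77.8 and Col13a1 at 75.8 and 59.3, and Col17a1, a component of the junction that holds squamous epithelium to its basement membrane, was closed. The highest peaks of Col25a1 and Col13a1 lay at inner starts, 49249 and 101118 bp inside the gene. Within 1 kb of the outermost start these genes had peaks in replicate 1 only, the highest at 1.93 for Col25a1 and at 37.0 for Col13a1. Among the multiplexins, which carry cleavable ends such as endostatin, Col18a1 was open and Col15a1 closed. Col18a1 shows how its inner start carried the rank: the peak 52488 bp inside the gene, at the start of a protein-coding transcript, stood at 83.6 and 80.8, a further start 76988 bp inside at 44.4 and 33.9, and the outermost start at 42.3 in replicate 1 with no peak in replicate 2. Col26a1 stood at 73.7 and 53.0, at a peak 127319 bp inside the gene near a retained intron.

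The choice of start mattered for 6 genes. Counting the outermost start alone, 28 collagen genes were open in replicate 1 and 22 in both libraries, beside 61.8% of all genes in replicate 1, 59.4% in replicate 2 and 58.7% in both, and Col13a1, Col18a1, Col19a1, Col25a1, Col26a1 and Col27a1 dropped out. With starts of protein-coding transcripts alone, a choice made after seeing the data, 26 were open, beside 62.1%, and Col19a1 and Col26a1 dropped out. At least 2 separate promoter-window peaks in both libraries were found for 12 collagen genes, beside 32.3% of all genes.

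Peaks in replicate 1 alone were found for 4 genes: Col2a1 at 11.5, Col8a2 at 46.8, Col14a1 at 11.04 and Col28a1 at 2.74. Over all genes 3.62% were open in 1 library only. These peaks were low in rank except that of Col8a2, a network chain known from the basement membrane of the corneal endothelium, which held 2 footprints. Replicate 1 has the longer list, and no collagen gene was open in replicate 2 alone. Among the 28 genes open in both, the percentile was higher in replicate 1 for 23, or 82.1%, beside 64% of all genes open in both. The median difference was 5.36 points among collagen genes and 0.767 over all genes. These sets differ in rank, with medians of 66.6 and 59.4 against 90.7 and 89.9, and no comparison at matched rank was made. The difference was over 20 points for Col4a3, Col4a4, Col6a1, Col22a1, Col24a1 and Col26a1, the widest gaps of the 28.

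Neither library gave a promoter-window peak for 12 genes, or for 32.8% of all genes: Col4a6, Col6a4, Col7a1, Col8a1, Col9a1, Col9a2, Col9a3, Col10a1, Col11a2, Col15a1, Col17a1 and Col20a1. Several belong to types known from other tissues: types IX, X and XI from cartilage and types VII and XVII from the skin. Of type XI only Col11a2 is among the 12, as Col11a1 was open in both libraries. Basal squamous epithelium markers were open in both libraries for 1 of 5 genes, Itgb4 at 52.6 and 52.4, beside 63.6% of all genes. Trp63 had a peak in replicate 1 only, at 6.80, and Krt5, Krt14 and Dsg3 were closed. Signal below the peak list remained at 5 of the 12 (Col4a6, Col7a1, Col8a1, Col11a2 and Col15a1), which had a run of bases listed by the authors, at most 0.05 in false discovery rate, near a start in both libraries, against 5.67% of all genes without a peak. Every start was searched. Col7a1, Col11a2 and Col15a1 have 8 starts each, Col4a6 has 3 and Col8a1 has 2, against a median of 3 over all genes. In the larger peak lists, where 70.7% and 68.3% of all genes were open, 2 of the 12, Col7a1 and Col15a1, were open in both libraries, beside 3.96% of all genes without a peak in the smaller lists.

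Most collagen promoter-window peaks held footprints. The highest promoter-window peak overlapped a footprint at 31 of 32 open genes in replicate 1 and 28 of 28 in replicate 2, beside 99% and 98.2% over all open genes. Over all their promoter-window peaks, 60 in replicate 1 and 45 in replicate 2, the share with a footprint was 85.0% and 88.9%, a mean of 86.9% ± 2.75 (SD, n = 2), beside 81.1% and 83.2%. The mean number of footprints per peak was 2.67 and 2.47, against 2.89 and 3.00 over all promoter-window peaks. A partner in the other library was found for 68.3% of collagen peaks in replicate 1 and 91.1% in replicate 2, beside 78.8% and 93.3%. The Col1a1 intron peak held 4 and 6 footprints and the Col5a1 start 6 and 5.

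Away from starts, collagen genes were rich in peaks. There were 297 distal peaks in replicate 1 and 225 in replicate 2, a mean of 261 ± 50.9 (SD, n = 2), which merged into 312 regions, 209 of them found in both libraries. A distal peak was present for 42 genes in replicate 1 and 41 in replicate 2, and for 41 in both, beside 73.2%, 69% and 67.6% of all genes. A collagen gene had a median of 6 distal peaks in replicate 1 and of 5 in replicate 2, against medians of 2 and 1 over all genes. Collagen genes are long, with a median gene model of 114.4 kb against 17.43 kb. Per 100 kb of gene and flanks the medians were 4.19 and 3.45, against 2.46 and 2.11, so the excess was smaller once length was counted. Of the 12 closed genes, 11 had distal peaks in both libraries, beside 67.6% of all genes. The share among all closed genes was not computed, and this count takes no account of length. Col10a1 and Col11a1 had no distal peak in either library, and Col4a5 had 2 in replicate 1 only.

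The rank of these distal peaks was like that of others. The median percentile was 39.9 in replicate 1 and 43.6 in replicate 2, against 42.9 and 41.7 over all distal peaks, and 94.3% and 88.4% overlapped a footprint, beside 92.5% and 89.1%. A partner was found for 70.7% and 92.9%, beside 71% and 87.9%. Regions in both libraries ranked higher, with medians of 56.6 and 44.5, than those in 1 library, with 19 and 28.4. Of the 216 pairings of a region in both libraries with a gene, 143 lay in introns, 32 upstream, 30 downstream, 7 in coding exons and 4 in other exons.

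**Figure D4:**
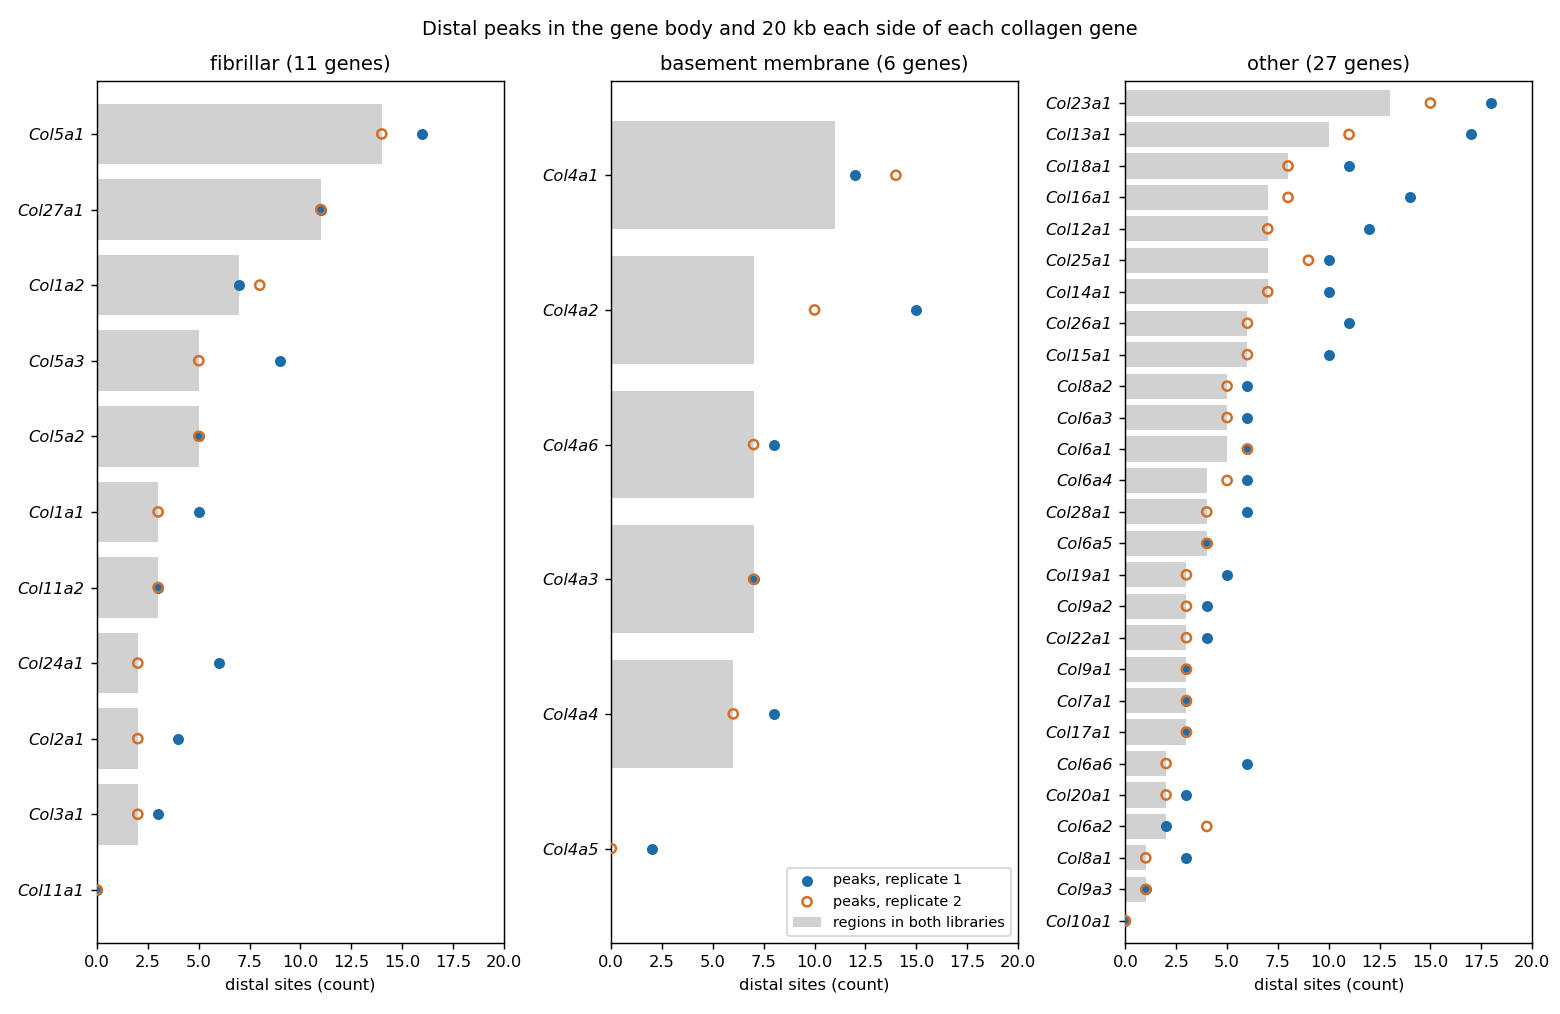
Number of distal peaks in the body and 20 kb flanks of each collagen gene (x axis) in replicate 1 (filled circles) and replicate 2 (open circles); bars count regions found in both libraries. Col5a1 leads with 14 such regions and Col23a1 has 13, while Col10a1 and Col11a1 have no distal peak.

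The genes with most regions in both libraries were Col5a1 with 14, Col23a1 with 13, Col27a1 and Col4a1 with 11 each and Col13a1 with 10. Counted per 100 kb of gene and flanks, the order of these regions changed, with Col1a2 first at 9.12, then Col6a1 at 8.71, Col16a1 at 7.66, Col8a2 at 7.40 and Col5a1 at 7.25. Counting the peaks of each library instead, Col16a1 led in replicate 1 with 15.3 and Col6a1 in replicate 2 with 10.46, so the order depends on the library. The 3 upstream Col1a2 regions lay 14754, 15294 and 16284 bp before the outermost start. The middle one, printed above, stood at 70.0 and 72.9, over the Col1a2 promoter itself in both libraries, and its neighbours at 40.3 and 55.6 and at 65.7 and 68.1. At Col6a1, 3 upstream regions at 2392, 7322 and 9052 bp stood at 92.0 and 80, 88.3 and 85.5, and 86.4 and 78.0, each over the peak at the gene start. Another, at 6875 bp, stood at 31.9 and 44.9, below the start peak in replicate 1 and over it in replicate 2.

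Distal regions at the 80th percentile or above in both libraries numbered 19, or 9.09% of the regions found in both, beside 8.82% of all distal peaks with a partner. The top region lay in an intron of Col23a1, 249910 bp inside the gene, at 98.9 and 95.9. Next came a site 16083 bp before Col5a3, at 97.2 and 92.3, and an intron site of Col18a1 35788 bp inside, at 94.6 and 92.5. A site 1522 bp before Col13a1 stood at 96.7 and 89.2 and an intron site of Col16a1, 39700 bp inside, at 94.9 and 89.4. The Col5a3 site ranked over the Col5a3 promoter in both libraries. Col1a1 had a region 7224 bp upstream at 89.7 and 87.5, close in rank to its intron peak. At least part of that region is covered by annotated exons.

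Closed or weakly open genes could carry high distal sites. Col15a1, closed in both libraries, had intron regions 26919, 42989 and 47689 bp inside the gene at 88.3 and 83.5, 91.0 and 76.9, and 89.8 and 83.3. Col8a2 had an intron region at 91.8 and 86.9, and Col14a1 a region 1260 bp before its start at 88.8 and 82.9, just outside the promoter window. Col2a1 had an intron region at 77.2 and 81.9. By contrast Col3a1, open at its start, had 2 regions in both libraries, at 39.9 and 30.4 and at 18.5 and 31.6, and the 7 such regions of Col4a6 stayed at or under 40.3 in replicate 1 and 9.70 in replicate 2. Distal regions are assigned by position, so which gene they act on is not known.

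Collagen starts were poor in CpG, the dinucleotide that is dense at the starts of broadly active genes. The ratio of observed to expected CpG over 1000 bp around the outermost start had a median of 0.435, against 0.553 for all genes. It was at least 0.6 for 12 of 44 collagen genes, beside 46% of all genes. Below that level 19 of 32 collagen genes were open in both libraries, or 59.4%, beside 38.3% of all such genes. At or above it 9 of 12 were open, or 75%, beside 93.3%. The low-CpG collagen genes open in both had median percentiles of 62.6 and 51.3, against 80.7 and 79.1 over all such genes, and those with high CpG 85.8 and 80.4, against 93.3 and 92.5. Ranks were thus lower than the background in both CpG classes.

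The ratio and the rank went together at some single genes and not at others. Col6a2, with a ratio of 0.428, ranked high with few CpG. Col1a1 had a ratio of 0.301, with 77.6 and 77.2 at the start itself and its highest peak in the intron, whereas Col1a2 had 0.198 and Col3a1 0.179. Col4a1 and Col4a2, with 0.774 and 0.784, stood over Col4a3 and Col4a4, with 0.452 and 0.459. Col15a1 with 0.756, Col8a2 with 0.674 and Col2a1 with 0.603 were the high-CpG genes not open in both libraries. The ratio was taken at the outermost start, so for genes whose highest peak lies farther inside, such as Col1a1 with its intron peak and the 6 genes not open there in both libraries, it describes another place than that peak.

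**Figure D5:**
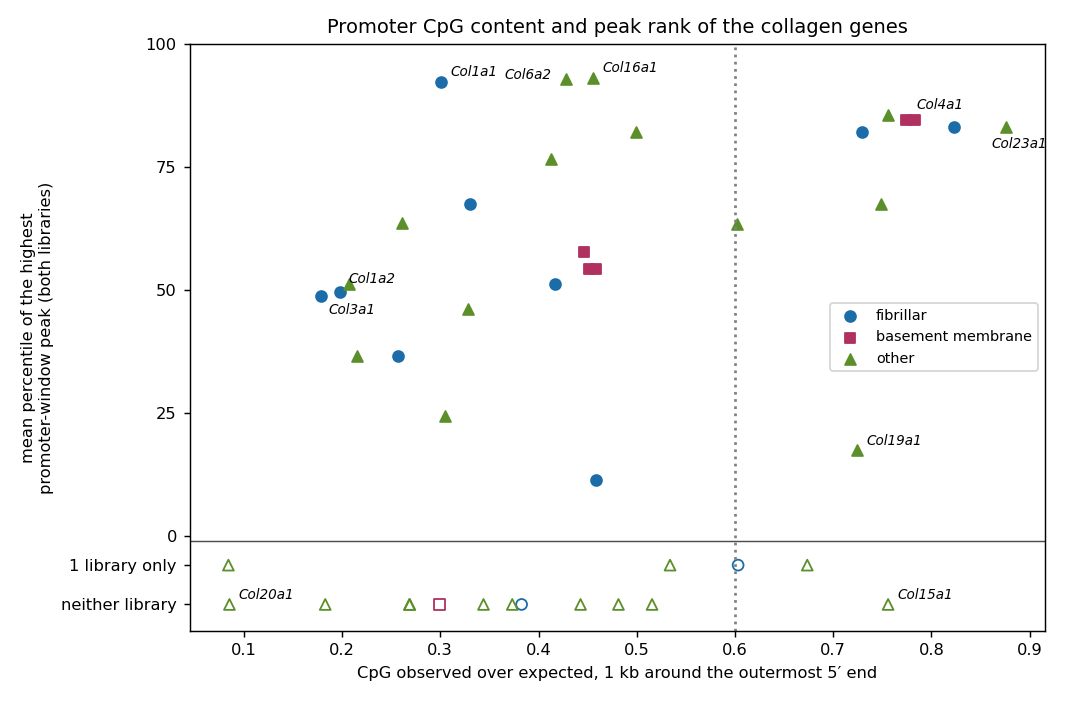
Ratio of observed to expected CpG around the outermost 5′ end (x axis) against the mean percentile of the highest promoter-window peak over both libraries; genes open in 1 library or none are in the lower rows, and the dotted line marks 0.6. Col1a1, by its intron peak, Col6a2 and Col16a1 sit high at ratios under the line, and Col15a1 is closed at 0.756.

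Short consensus sequences were searched on both strands within 75 bp of each peak centre on both sides. Among promoter-window peaks GGGCGG, the box of SP and KLF factors, was present in 33.3% of collagen peaks in replicate 1 and 44.4% in replicate 2, beside 41.5% and 44.0% of all. CCAAT, the box of NF-Y, was in 16.7% and 20%, beside 19.5% and 21.2%, and TATAAA, the TATA box, in 5.00% and 4.44%, beside 2.35% and 2.19%. The TATAAA shares rest on 3 of 60 and 2 of 45 collagen peaks, and only the Col1a1 start peak had a match in both libraries. At the Col1a1 start a CCAAT box lies at chr11:94936125-94936129, inside footprints of both libraries and in capitals above, and another at chr11:94936151-94936155 partly so. TATAAA lies at chr11:94936224-94936229, just after the printed stretch and inside footprints of both. It begins at the first base of the Col1a1 gene model, not before it. The Col5a1 start has a footprinted GGGCGG at chr2:27886352-27886357.

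Among distal peaks TGANTCA, the site of AP-1 factors, was present in 12.1% and 9.33% of collagen peaks, beside 6.68% and 6.75% of all distal peaks, and CCAAT in 19.9% and 24.4%, beside 17.1% and 17.2%. GGAATG, the box of TEAD factors, was in 13.8% and 15.6%, beside 11.3% and 11.2%. These are descriptions of letters without a test. The Col1a2 upstream region has a CCAAT box at chr6:4489533-4489537 inside footprints of both libraries. The other consensus sequences, the NFI palindrome (TTGGC and GCCAA 5 bases apart), CCGGAAGT (ETS), AACAATGG (SOX) and TGTGGTTT (RUNX), were each in at most 2.22% of collagen peaks of either kind.

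After the sequences had been read, the core of the CTCF site was added: CC, AG and GG, with 3 free bases between the first pair and 2 between the last. CTCF binds DNA at domain boundaries and loop anchors. The core was present in 11 of the 19 collagen distal regions at the 80th percentile or above in both libraries, or 57.9%, beside 58.1% and 46.9% of all distal peaks at that level in each library. In the other collagen regions found in both libraries it was in 34.2%, beside 26.9% and 28.6%. The 57.9% was thus close to the share of strong distal peaks in general in replicate 1 and over it in replicate 2. The sets are not alike. The collagen regions had to be found in both libraries, while the background peaks of each library needed no partner in the other. Whole cores inside footprints of both libraries were found in 10 of the 19, among them those of Col23a1, Col5a3, Col18a1 and Col13a1 printed above, and not in that of Col16a1. The Col18a1 region has 2, at chr10:77130735-77130745 and chr10:77130769-77130779. Cores inside footprints were not counted over all distal peaks, so the 10 of 19 has no background beside it.

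The same core also lies in the highest promoter-window peaks of Col1a1 and Col27a1. In the Col1a1 intron it is at chr11:94937177-94937187 on the minus strand, and at Col27a1 at chr4:63215299-63215309 on the plus strand, whole inside footprints of both libraries at each. Over all collagen promoter-window peaks it was in 23.3% and 22.2%, beside 24.2% and 24.4% of all such peaks. The highest Col1a1 peak, at 95.0 and 89.8, thus holds a match to this core and also 1 to GGGCGG. Any part of either match in its rank was not tested. The peak at the start, with its CCAAT and TATAAA matches, stood at 77.6 and 77.2.

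Genes that make and assemble collagen were open more often than the collagen genes. Of 44 such genes 40 were open in each library and 39 in both, beside 63.6% of all genes. All 19 hydroxylases and chaperones, which modify and fold the chains in the endoplasmic reticulum, were open in both, with medians of 90.8 and 89.7, close to those of all open genes. P4hb, a subunit of prolyl 4-hydroxylase, stood at 99.4 and 99.5, and Serpinh1, the collagen chaperone, at 92.4 and 89.7. Of 8 genes for propeptide processing 7 were open in both, with Bmp1, the procollagen proteinase, at 83.1 and 77.4. Of the 5 cross-linking genes 4 were open, Lox at 68.7 and 73.4, and Loxl2 was closed. Of 6 proteoglycans and matrix partners 4 were open, and Dcn and Lum, which bind fibrils, were closed. Of 6 collagen receptors 5 were open in both, among them Ddr2 at 70.6 and 63.7, and Itga11 in replicate 1 only. By median rank the collagen genes were thus nearer to the processing, cross-linking and matrix groups, with 58.0 to 70.3 in replicate 1 and 52.7 to 67.6 in replicate 2, than to the folding enzymes.

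The tissue label was checked against markers. All 6 markers of lung epithelium, 4 of lung endothelium and 4 of lung mesenchyme were open in both libraries, with Sftpc at 66.3 and 70.6 and Pdgfra at 85.8 and 84.0, and 2 of 4 smooth muscle markers were. None of 4 hepatocyte markers was open in either library, and bone markers were open in both for 1 of 5, Runx2. Over all protein-coding genes 63.6% were open in both libraries and 32.8% in neither, so lists this short are a weak check.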

How the data were processed

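DNase-seq libraries from lung of 2 samples of 1 group were used. Per the listings that accompany the files, the authors aligned reads to mm10 and called each library separately; no source used here names the aligner, the peak caller or their versions. In the deposited peak files the authors give a signal per peak in an unstated scale, used here only as a rank within its library. The deposited files of cutting rate list, as a p-value type, the false discovery rate of runs of bases at 0.05 or below, and the deposited footprint files carry a constant p-value threshold of 0.01. Read depth is unknown, so no interval for depth was computed.

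From these files, promoter-window peaks (1 kb), distal peaks (20 kb flanks), overlaps of at least 1 bp, footprints and consensus sequences were counted with Python 3.11.15, numpy 2.4.6, pandas 2.3.3, pysam 0.24.0 and matplotlib 3.10.9, on GENCODE M21 and GRCm38. Overlap counting was tested on simulated data. The members and lists were chosen with earlier results of these data known. Genes named with full values were the 5 highest of each type, those open in 1 library or none, the head-to-head pairs, the 5 with most distal regions in both libraries in number and per 100 kb, and the 5 highest such regions; others named with values were chosen after these were seen. With 1 group no test was made. Alternatives covered the promoter window, the choice of starts, the flank, the peak list, the score, the overlap and each library alone; starts of protein-coding transcripts alone and the CTCF core were chosen after seeing the data.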

Additional observations from a re-analysis of the deposited data

How the results depend on the processing

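The 28 collagen genes open in both libraries became 16 when only the higher-scoring 50% of peaks counted. A shorter list can only lower this count. Under the other alternatives the count stayed within 1.5 times, from 22 with the outermost start to 35 with a 2500 bp window. The share of all genes was not computed for the 50% setting or for other window widths. Counted in each library alone, the open collagen genes were 28 to 32. The mean of 261 distal peaks became 506.5 with 100 kb flanks, 406.5 with the larger peak lists and 111 with the higher-scoring 50%, changes that follow from the wider space or from the number of peaks used; each library alone gave 225 to 297. The mean share of promoter-window peaks with a footprint, 86.9%, was 90.2% with the outermost start only, and 85.0 to 88.9% in each library alone. The median percentile, 62.2 as the mean of both libraries, was 56.6 with the outermost start only and 70.4 with the larger lists, and 59.4 to 65.1 in each library alone; the cause was not tested for these last changes. By type, the higher-scoring 50% left 4 of 9 fibrillar, 3 of 5 basement membrane and 9 of 14 other genes, and the outermost start left 9 of the 14. Of the distal peaks of replicate 1 with a partner, 210 at an overlap of 1 bp became 194 at 50% of both peaks.

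With 2 libraries of 1 group, differences between genes have no test, the scale of the score is not stated, and weak sites near the calling threshold depend on an unknown depth. No paired analysis was possible because all samples form 1 group. Reads of the parental alleles were not separated, and distal regions were assigned by position.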
